A study of Mus spretus with 19 samples.

Results

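A set of 10 genes of the enzymatic defence against superoxide and peroxides were followed in liver RNA of wild Algerian mice, Mus spretus: the glutathione peroxidases Gpx1, Gpx3 and Gpx4, the superoxide dismutases Sod1, Sod2 and Sod3, catalase (Cat) and the peroxiredoxins Prdx1, Prdx5 and Prdx6. They were found by their symbols in the probe annotation of the arrays, which gave 15 probes for the 10 genes, of 41174 probes on the array. All 15 probes and all 10 genes passed the filter on dim probes, and 16346 genes and transcripts were tested in all. Gpx3 set against the other 9 genes was the comparison of main interest, chosen when its rise was already known from these data.

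Superoxide dismutases turn superoxide into hydrogen peroxide, which catalase, glutathione peroxidases and peroxiredoxins then remove. The enzymes divide the work by place: catalase acts in peroxisomes, Sod2 in the mitochondrial matrix, Sod1 and Gpx1 largely in the cytosol, and Sod3 and Gpx3 are secreted and act outside cells. In mammals plasma Gpx3 comes mainly from the kidney tubule, while the liver is rich in catalase, Sod1 and Gpx1.

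The groups were male mice trapped at 5 places. PS stands for phosphogypsum stacks and DR1, DR4 and DR6 for points along the Domingo Rubio stream in its lower, middle and upper reach, all labelled polluted. SOL stands for the Santa Olalla lagoon, labelled unpolluted. Liver RNA of 9 mice was pooled at each site, and the pool was labelled and hybridized as technical repeats, 4 arrays each for PS, DR1, DR4 and SOL and 3 for DR6. The p-values below therefore measure the spread of labelling and hybridization, not the spread between mice, and each site lay on a slide and scan of its own, so that site, slide and scan cannot be told apart. The labels name the places and not the pollutants, and age, diet and season of the mice are not given in the sources used here. The probes were designed for Mus musculus, and the part of sequence differences in Mus spretus was not tested.

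The arrays were one-colour Agilent mouse arrays, on which each spot gives the brightness of 1 probe of 60 bases. Levels are given as log2 of the signal relative to the 75th percentile of the same array, so that 0 stands at that percentile, and a level was compared across sites for the same probe and never between probes. That percentile ran from 99.5 to 285.2 intensity units, and an array had 52.0% to 61.5% of its spots well above background. Arrays of a site correlated at 0.98 to 0.997 and arrays of different sites at 0.952 to 0.984. Of 12 hepatocyte markers, 11 were measured and all 11 were well above background on every array. Fewer cells of a type and less RNA per cell cannot be told apart in pooled tissue. A gene is said below to have risen or fallen where the limma test gave an adjusted p under 0.05 over all genes, and a 2-fold call needed a change of at least 1 on the log2 scale as well.

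The probes of 5 genes whose results are described most closely are shown by their first 30 bases of 60, 5′ to 3′, as deposited. None of the letters carries a mark. The second Prdx6 probe is shown because it went further than the first at every polluted site, most at DR1 and DR4.
Gpx3, A_51_P292008: ttttttcagctttctgttccaaatgagccc
Sod3, A_51_P342969: acaggcttgacctggttgagaagataggcg
Sod2, A_51_P172573: ggctggtttatagtagtgtagagcattgca
Cat, A_52_P679769: agggcttagcaatcatttaacagaaacatg
Prdx6, A_51_P496023: gacagccgggagaattcttacagggaatct
Prdx6, A_52_P540855: agtttgccaagaggaatgttaagttgattg

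In the mm8 mouse build, as the files give it, the whole Gpx3 probe (NM_008161) lies at chr11:54753357-54753416 on the plus strand, the Sod3 probe (NM_011435) at chr5:52656327-52656386 on the plus strand and the Sod2 probe (NM_013671) at chr17:12858140-12858199 on the plus strand. The Cat probe (NM_009804) lies at chr2:103255342-103255401 on the minus strand. Both Prdx6 probes (NM_007453) are on the minus strand, at chr1:163077880-163077939 and chr1:163083948-163084007. The 10 genes lie on 10 different chromosomes. Whether a probe lies in coding sequence or a UTR is not annotated in the files used here. Main probes of Gpx4, Prdx1 and Prdx5 map over 152, 771 and 435 genomic bases although a probe has 60, so each of these crosses at least 1 exon boundary.

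Gpx3 rose at all 4 polluted sites, most at DR4, where its signal was 30.1-fold that at SOL. No other gene of the 10 rose by 2-fold at any site, and 1 other, Sod3, fell by 2-fold, at DR4. At PS, DR4 and DR6 every other change that passed the test was a fall, with Sod2 lower at all 4 sites, narrowly at DR1, and each peroxiredoxin lowest at DR4 or DR6. Cat was the only other member with a rise at any site, at DR1.

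The relative log2 signal of Gpx3, the secreted plasma glutathione peroxidase, was 0.55, 0.61, 0.44 and 0.66 on the 4 PS arrays and -1.19, -0.71, -1.58 and -1.40 on the 4 DR1 arrays. It was 2.63, 2.50, 2.57 and 2.64 on the DR4 arrays and -0.66, -0.41 and -0.51 on the DR6 arrays, against -2.34, -2.42, -2.38 and -2.16 on the SOL arrays. Every array of every polluted site lay above every SOL array, and the ranges of the 5 sites did not overlap. The sites ran in the order DR4, PS, DR6, DR1 and SOL, and each neighbouring pair differed, the closest being DR6 over DR1 by 0.69 (limma, adjusted p = 0.000795). The spread within DR1 (SD 0.38) was the widest of the 5 sites, against 0.06 within DR4 and 0.12 within SOL.

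**Figure D1:**
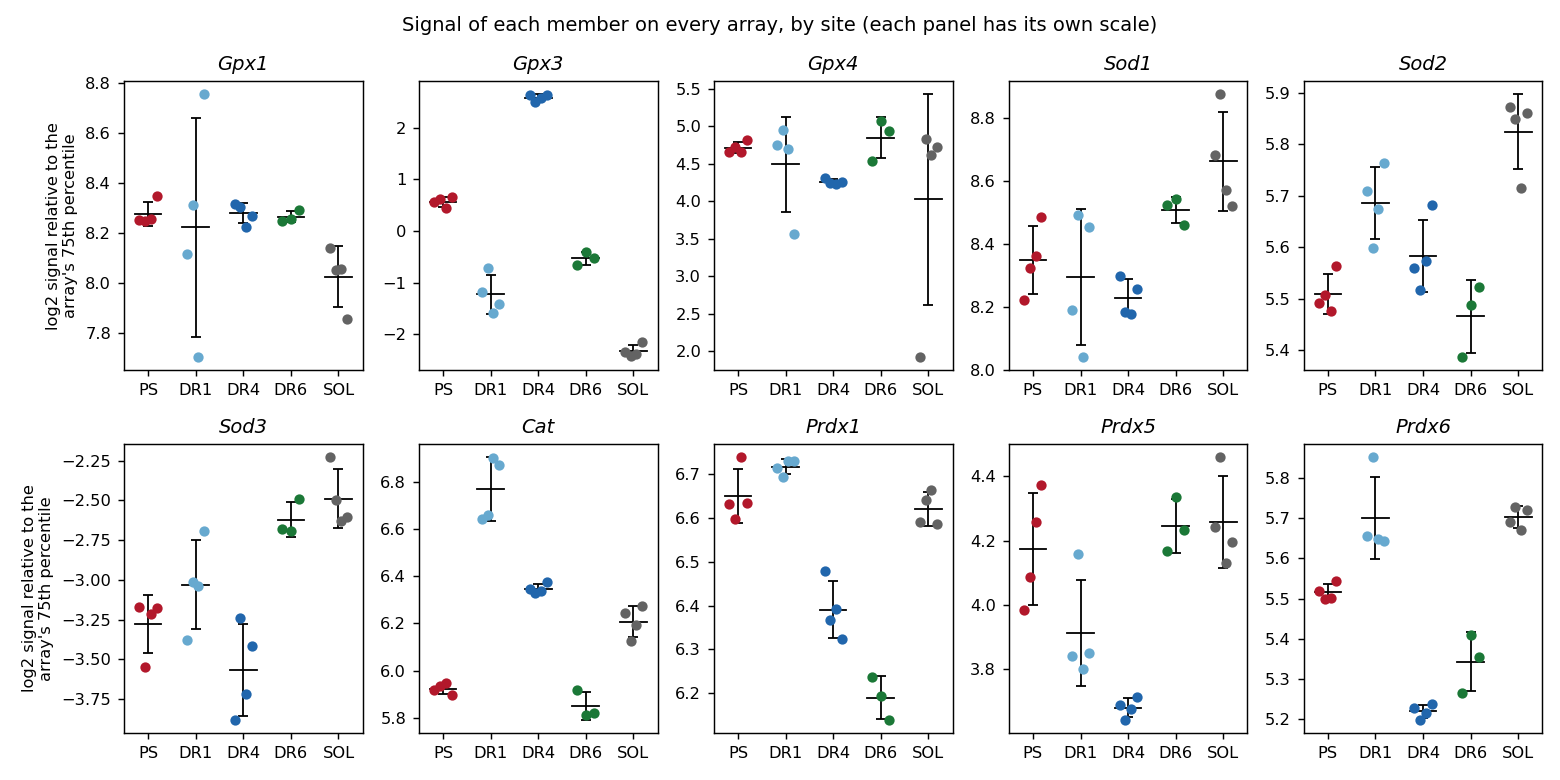
Relative log2 signal of the 10 genes (vertical axes, each with its own scale) on every array by site; each point is 1 array, the bar is the site mean and the whiskers are 1 SD over 4 arrays, or 3 for DR6. Gpx3 shows 5 separate levels with DR4 highest at a mean of 2.58 and SOL lowest at -2.33, while the lone low Gpx4 point at SOL, 1.92, widens the spread of that gene.

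Gpx3 rose by 4.91 ± 0.13 on the log2 scale at DR4 (SE, 4 arrays against 4; limma, adjusted p = 1.57e-14). The rise at PS was 2.89 ± 0.13, or 7.42-fold (adjusted p = 4.42e-11), and that at DR6 was 1.80 ± 0.14, or 3.47-fold (adjusted p = 4.46e-08). At DR1 it was 1.10 ± 0.13, or 2.15-fold (adjusted p = 4.24e-06). Among all genes tested, ordered by the size of their rise, Gpx3 stood in place 9 at DR4, 16 at PS, 191 at DR6 and 497 at DR1. Gpx3 also differed between the polluted sites in all 6 pairs, by up to 3.81 between DR4 and DR1, and 5 of the 6 pairs passed 2-fold.

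Gpx3 was dim at SOL. Its spot there was 1.73 to 2.05 times the local background, against 21.4 to 27.3 times at DR4, 6.29 to 7.53 times at PS, 3.18 to 3.69 times at DR6 and 2.53 to 2.99 times at DR1, although it was well above background on all 19 arrays. With another background correction (normexp) and quantile scaling, the rise was 3.06 at DR4, 1.48 at PS, 0.72 at DR6 and 0.35 at DR1. The adjusted p under that processing was at most 0.00151, but the 2-fold calls at DR6 and DR1 were lost. The DR1 call was also lost without DR1 replicate 2, with a rise of 0.93.

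With the 5 pools as units in place of the 19 arrays, the mean of the 4 polluted pools exceeded the SOL pool by 2.67 ± 1.29 on the log2 scale (SE, 4 pools against 1). In that limma fit the adjusted p was 0.998 and the unadjusted p 0.0804. All 4 polluted pools lay above SOL, the lowest at -1.22. The same fit called 0 of 16343 genes, which is 0%, with 665 at an unadjusted p under 0.05.

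**Figure D2:**
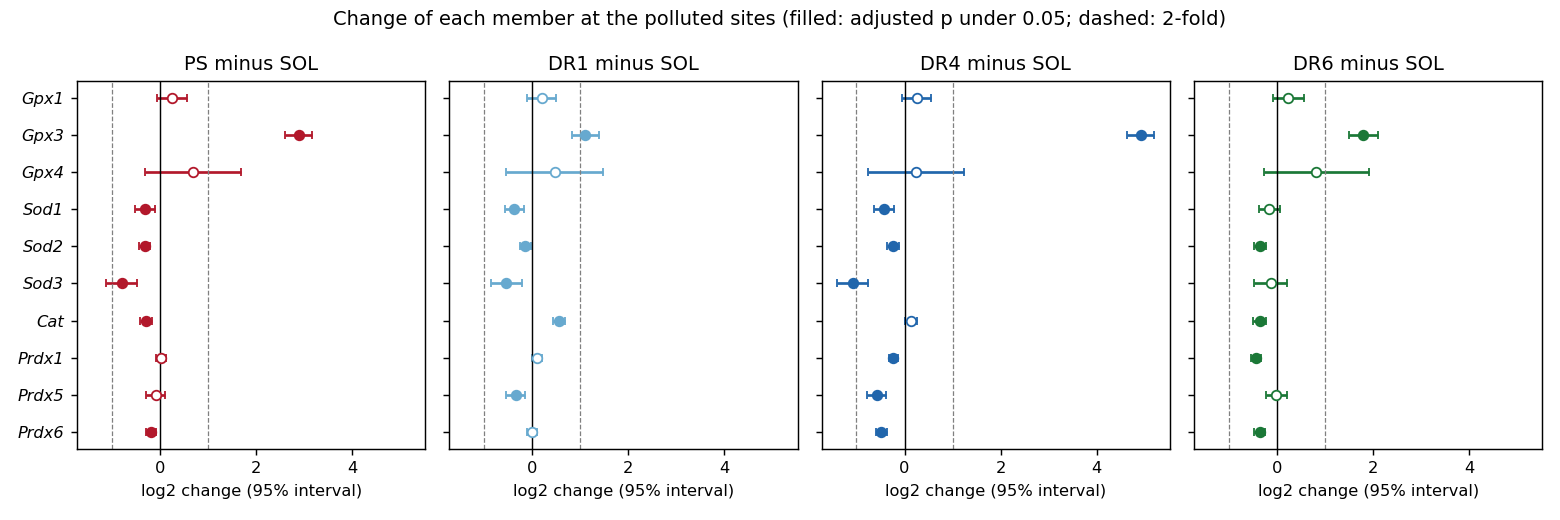
Log2 change of each gene at each polluted site minus SOL, with the 95% interval from the limma fit; filled points passed an adjusted p of 0.05 and dashed lines mark 2-fold. Gpx3 stands to the right of all other genes at every site, and the wide intervals belong to Gpx4.

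Set against the other 9 genes, Gpx3 had the largest change at each of the 4 sites. Under normexp and quantile scaling it kept that place at PS and DR4 but not at DR1, where Gpx1 (0.55), Cat (0.50) and Gpx4 (0.352) stood above its 0.351, nor at DR6, where Gpx4 (0.81) did. At PS the others changed by -0.79 (Sod3) to 0.69 (Gpx4), at DR1 by -0.54 (Sod3) to 0.56 (Cat), at DR4 by -1.07 (Sod3) to 0.25 (Gpx1) and at DR6 by -0.43 (Prdx1) to 0.82 (Gpx4). The per-array difference of Gpx3 minus each other gene was compared between polluted site and SOL in 36 two-sided exact permutation tests. At DR4 the change of Gpx3 exceeded those of the others by 4.66 to 5.98, and at PS by 2.20 to 3.68. In both places the differences on the polluted arrays lay apart from those on the SOL arrays for 9 of 9 genes, with an exact p of 0.0286 each (adjusted over the 36 tests, 0.0322), which is the smallest p that these numbers of arrays allow. The share of all genes set apart from Gpx3 in this way was not computed for any site. Few genes rose as much as Gpx3 at DR4 (place 9) and PS (place 16), so these counts cannot be read as particular to the 9 genes. The lowest excess at DR4 is the one over Gpx1, whose spot was saturated on 2 of 4 DR4 arrays, so it is an upper limit.

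At DR6 the excess was 0.97 to 2.23 and 8 of 9 genes were separated, at the same exact p of 0.0286. Gpx4 overlapped, with an excess of 0.97 and an exact permutation p of 0.257, and without SOL replicate 1 the count was 9 of 9. At DR1 the excess was 0.54 to 1.64 and 6 of 9 genes were separated, or 7 without SOL replicate 1. The 6 include Sod1, saturated on all 4 DR1 arrays, and Gpx1 was saturated on 3 of them, so the excess over these 2 genes is an upper limit. Cat, Gpx1 and Gpx4 overlapped there, with an exact permutation p of 0.0571, 0.0571 and 0.429. Under normexp and quantile scaling, 3 of 9 were separated at DR1. These p-values describe the arrays of the pools, and Gpx3 was singled out with its rise known, so they are not independent support for it.

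Counted over the 10 genes, 1 had a 2-fold rise at each site, namely Gpx3. Over all genes tested, a 2-fold rise was called for 2.23% at PS, 3.53% at DR1, 5.43% at DR4 and 4.67% at DR6. A 2-fold fall was called for 1 member at DR4 and 0 at the other sites, against 2.18% of all genes at PS, 2.55% at DR1, 5.10% at DR4 and 2.28% at DR6. By adjusted p alone, 1 member was higher at PS, 2 at DR1, 1 at DR4 and 1 at DR6, against 16.4%, 24.5%, 23.9% and 20.5% of all genes. Likewise, 5 members were lower at PS, 4 at DR1, 6 at DR4 and 4 at DR6, against 16.4%, 23.2%, 31.0% and 23.4% of all genes. The median change of the 10 genes was -0.13 at PS, 0.05 at DR1, -0.24 at DR4 and -0.14 at DR6, beside medians over all genes of -0.01, 0.01, -0.05 and -0.00. The 4 comparisons share the SOL arrays.

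The changes of the other 2 glutathione peroxidases did not pass the test. Gpx1, the abundant selenoenzyme of cytosol and mitochondria, had relative log2 signals of 8.25, 8.25, 8.26 and 8.35 at PS, 8.12, 8.31, 7.70 and 8.76 at DR1, 8.31, 8.30, 8.22 and 8.27 at DR4 and 8.25, 8.26 and 8.29 at DR6. At SOL they were 8.14, 8.05, 8.05 and 7.85. The PS, DR4 and DR6 arrays all lay above those of SOL, and DR1 overlapped them. Differences from SOL were 0.20 to 0.25 with adjusted p between 0.149 and 0.28, and the spot was saturated on 3 of 4 DR1 and 2 of 4 DR4 arrays, so that the level of Gpx1 is a lower limit there. At DR1 the difference was 0.02 without DR1 replicate 4 and 0.37 without DR1 replicate 3, where it passed the test (adjusted p = 0.0118). Gpx1 passed the test as higher under quantile scaling at PS (0.31), DR1 (0.53) and DR4 (0.57), and under normexp at all 4 sites, by 0.30 at DR6 to 0.66 at DR4.

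Gpx4, which reduces lipid hydroperoxides within membranes, gave 4.66, 4.72, 4.66 and 4.82 at PS, 4.75, 4.95, 4.69 and 3.56 at DR1, 4.31, 4.24, 4.23 and 4.26 at DR4 and 4.54, 5.06 and 4.93 at DR6. Its SOL values were 1.92, 4.83, 4.62 and 4.72. SOL replicate 1 lay far below all other arrays of this gene, and all 4 sites overlapped the SOL range. With all arrays the differences were 0.69 at PS, 0.47 at DR1, 0.24 at DR4 and 0.82 at DR6, with adjusted p from 0.211 to 0.696 and 95% intervals as wide as -0.26 to 1.91 (DR6). Without SOL replicate 1 they were -0.01 at PS, -0.23 at DR1 and -0.46 at DR4, so the sign at those 3 sites rested on 1 array. At DR6 the difference was then 0.12 (adjusted p = 0.72), so the 0.82 given above rests on that array too.

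Among the dismutases, Sod3, the extracellular copper-zinc enzyme, fell at PS, DR1 and DR4. Its values were -3.17, -3.55, -3.22 and -3.18 at PS, -3.38, -3.01, -3.04 and -2.69 at DR1, -3.88, -3.24, -3.72 and -3.41 at DR4 and -2.68, -2.69 and -2.49 at DR6. At SOL they were -2.23, -2.50, -2.63 and -2.61. The arrays of PS, DR1 and DR4 all lay below those of SOL, and DR6 overlapped SOL.

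Sod3 fell by 1.07 ± 0.15 at DR4 (limma, adjusted p = 1.38e-05), by 0.79 ± 0.15 at PS (adjusted p = 0.00072) and by 0.54 ± 0.15 at DR1 (adjusted p = 0.00771). Its difference at DR6 was -0.13 ± 0.16 (adjusted p = 0.548). The DR4 change exceeded 2-fold narrowly: it was -0.99 without SOL replicate 1, -0.97 without DR4 replicate 1 and -0.27 under normexp and quantile scaling. Under normexp it was -0.26 at PS and -0.15 at DR1, with adjusted p of at most 0.0431. Sod3 was dim throughout, with spots 1.37 to 1.68 times the local background at DR4, 1.66 to 2.23 times at DR1 and 1.77 to 2.03 times at SOL. Its unscaled signal at DR1, 21.65 to 34.75, was not below the 21.26 to 26.95 at SOL, so the fall at DR1 appears only after the arrays are scaled.

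Sod2, the mitochondrial manganese enzyme, was lower at all 4 sites by less than 2-fold. It gave 5.49, 5.51, 5.48 and 5.56 at PS, 5.71, 5.60, 5.67 and 5.76 at DR1, 5.56, 5.52, 5.57 and 5.68 at DR4 and 5.39, 5.49 and 5.52 at DR6. The SOL arrays gave 5.87, 5.85, 5.72 and 5.86. PS, DR4 and DR6 lay wholly below SOL, and DR1 overlapped it. Sod2 fell by 0.36 ± 0.06 at DR6 (limma, adjusted p = 0.000132), 0.32 ± 0.06 at PS, 0.24 ± 0.06 at DR4 and 0.14 ± 0.06 at DR1 (adjusted p = 0.0492). The sign of Sod2 held under every scaling tried, but its test was not passed at DR1 and DR4 under normexp and quantile scaling, nor at DR1 under median scaling, with the deposited series table or with dim probes kept. The DR1 fall was also lost in 6 of 8 fits that left out 1 array, those without SOL replicates 1, 2 and 4 and DR1 replicates 1, 2 and 3, with adjusted p up to 0.118.

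Sod1, the copper-zinc enzyme of the cytosol, gave 8.22, 8.32, 8.36 and 8.48 at PS, 8.19, 8.49, 8.04 and 8.45 at DR1, 8.30, 8.18, 8.18 and 8.26 at DR4 and 8.52, 8.54 and 8.46 at DR6. At SOL it gave 8.68, 8.87, 8.57 and 8.52. PS, DR1 and DR4 lay below SOL, and DR6 overlapped it. Sod1 fell by 0.43 ± 0.10 at DR4 (limma, adjusted p = 0.00109) and 0.31 ± 0.10 at PS (adjusted p = 0.0192), and its difference at DR6 was -0.15 ± 0.10 (adjusted p = 0.248).

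The Sod1 spot was saturated on all 4 DR1 arrays, so its level there is a lower limit and no size is given for DR1, where the unscaled signal of 65610 to 75050 was above the 40800 to 63550 at SOL. The count of 4 members lower at DR1 includes Sod1. Quantile scaling turned the sign at DR1 and Sod1 no longer passed at DR4. The same scaling passed Sod1 as lower at DR6 (-0.19, limma, adjusted p = 0.0192). Median scaling and the mean of all probes did not pass it at PS, nor did the fits without SOL replicate 2 (-0.24, adjusted p = 0.0687) or PS replicate 1 (-0.27, adjusted p = 0.0646). Normexp did not pass Sod1 at any site. A second Sod1 probe (A_52_P3581) differed by -0.64 at DR4, -0.17 at PS, -0.35 at DR1 and -0.10 at DR6. The last one, printed at 10 spots (A_51_P425205), differed by -0.28 at DR4, 0.16 at PS, 0.02 at DR1 and 0.22 at DR6. The 3 probes shared their sign at DR4 and disagreed at the other 3 sites. They are not equal measures: at SOL the main spot was 1090 to 1450 times the local background. There A_52_P3581 was at 3.18 to 3.82 times and A_51_P425205 at 1.57 to 2.1 times. These dim probes are also annotated to another transcript record than the main probe.

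Catalase, the peroxisomal enzyme that splits hydrogen peroxide, moved in both directions. Cat gave 5.92, 5.93, 5.95 and 5.90 at PS, 6.64, 6.66, 6.90 and 6.87 at DR1, 6.35, 6.33, 6.34 and 6.38 at DR4 and 5.92, 5.81 and 5.82 at DR6. The SOL arrays gave 6.24, 6.12, 6.19 and 6.27. DR1 and DR4 lay above SOL and PS and DR6 below it, with no overlap.

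Cat rose by 0.56 ± 0.06 at DR1 (limma, adjusted p = 1.14e-06), and fell by 0.36 ± 0.06 at DR6 (adjusted p = 0.000317) and 0.28 ± 0.06 at PS (adjusted p = 0.00156). At DR4 it differed by 0.14 ± 0.06 (adjusted p = 0.0603). The DR1 rise passed the test under every alternative that kept all arrays. The PS fall was not passed under median scaling or normexp, the DR6 fall was not passed under normexp, and the DR4 difference passed under quantile scaling (0.28) and normexp (0.43). DR1 exceeded DR6 by 0.92 (adjusted p = 1.06e-08) and PS was below DR1 by 0.84 (adjusted p = 1e-08), so the upper and lower course of the same stream lay on opposite sides of SOL for this gene.

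The changes of the peroxiredoxins, which reduce peroxides through a reactive cysteine, were falls wherever they passed the test. Prdx1, a cytosolic form recycled by thioredoxin, gave 6.63, 6.60, 6.74 and 6.63 at PS, 6.71, 6.70, 6.73 and 6.73 at DR1, 6.48, 6.37, 6.39 and 6.32 at DR4 and 6.24, 6.19 and 6.14 at DR6, against 6.59, 6.64, 6.67 and 6.59 at SOL. DR4 and DR6 lay below SOL and DR1 above it, without overlap. Prdx1 fell by 0.43 ± 0.05 at DR6 (limma, adjusted p = 4.14e-06) and 0.23 ± 0.05 at DR4 (adjusted p = 0.00057), the DR4 fall not passing under quantile scaling or normexp. It differed by 0.03 at PS, where normexp turned the sign, and by 0.10 at DR1, with adjusted p of 0.673 and 0.106. Under normexp Prdx1 passed as higher at DR1 (0.29, adjusted p = 0.0302).

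Prdx5, found in mitochondria, peroxisomes and cytosol, gave 3.98, 4.09, 4.26 and 4.37 at PS, 3.84, 4.16, 3.80 and 3.85 at DR1, 3.69, 3.64, 3.67 and 3.71 at DR4 and 4.17, 4.34 and 4.24 at DR6. At SOL it gave 4.24, 4.46, 4.13 and 4.195. DR4 lay wholly below SOL, and DR1, PS and DR6 overlapped it. Prdx5 fell by 0.58 ± 0.09 at DR4 (limma, adjusted p = 6.5e-05) and 0.34 ± 0.09 at DR1 (adjusted p = 0.00666), and differed by -0.08 at PS and -0.01 at DR6 (adjusted p = 0.547 and 0.944).

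Prdx6, which uses glutathione as its reductant, gave 5.52, 5.50, 5.50 and 5.54 at PS, 5.66, 5.85, 5.65 and 5.64 at DR1, 5.23, 5.20, 5.21 and 5.24 at DR4 and 5.26, 5.41 and 5.36 at DR6. At SOL it gave 5.69, 5.73, 5.67 and 5.72. PS, DR4 and DR6 lay wholly below SOL, and DR1 overlapped it. Prdx6 fell by 0.48 ± 0.05 at DR4 (limma, adjusted p = 5.53e-07), 0.36 ± 0.06 at DR6 (adjusted p = 6.45e-05) and 0.19 ± 0.05 at PS (adjusted p = 0.01). The PS fall did not pass under median scaling, normexp or the mean of all probes. That mean includes A_52_P388359, which differed by 0.55 at PS but was well above background on no SOL array. At DR1 the main Prdx6 probe stood at the SOL level (-0.00 ± 0.05, limma, adjusted p = 0.968).

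The other Prdx6 probes partly differed from this one. A_52_P540855, whose first bases are printed above, differed by -0.92 at DR4, -0.48 at DR6, -0.44 at DR1 and -0.20 at PS. A_52_P258606 differed by -0.41 at DR4, -0.42 at DR6, -0.07 at DR1 and -0.28 at PS. The fourth probe, A_52_P388359, was well above background on 3 of 4 PS, 2 of 4 DR1, 1 of 4 DR4, 0 of 3 DR6 and 0 of 4 SOL arrays, and gave no usable level. The differences of the other 3 Prdx6 probes, the main probe among them, were negative at DR4, DR6 and PS. At DR1 they were negative too, but ran from -0.00 for the main probe to -0.44.

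Between the polluted sites, the adjusted p passed for 5 of 10 members in PS against DR1, 5 in PS against DR4, 4 in PS against DR6, 5 in DR1 against DR4, 7 in DR1 against DR6 and 6 in DR4 against DR6. Over all genes these shares were 48.4%, 53.2%, 42.2%, 44.7%, 50.8% and 44.4%, so the members' counts were close to those of genes in general. Gpx3 passed in 6 of 6 pairs, Cat, Prdx1 and Prdx6 in 5 each, Sod3 and Prdx5 in 4 each, Sod2 in 2, Sod1 in 1 and Gpx1 and Gpx4 in 0. Of these differences, those past 2-fold belonged to Gpx3.

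The rest of the pathway was read from lists of other antioxidant genes, of selenoproteins (which, like Gpx1, Gpx3 and Gpx4, carry selenocysteine) and of oxidases that produce hydrogen peroxide. Of 30 other antioxidant genes, 28 were measured. By adjusted p, 8 were higher and 6 lower at PS, 5 and 8 at DR1, 6 and 16 at DR4, and 8 and 8 at DR6. Over all genes, 16.4% were higher and 16.4% lower at PS, 24.5% and 23.2% at DR1, 23.9% and 31.0% at DR4, and 20.5% and 23.4% at DR6. The median change of the antioxidant list was -0.25 at DR4, close to the -0.24 of the 10 members. Few of them had 2-fold calls. At DR4 they were Gpx2, the glutathione peroxidase best known from gut epithelium, which rose by 1.16 ± 0.13 (limma, adjusted p = 1.19e-06), and Sesn2, a stress-induced sestrin, which rose by 1.31 ± 0.05 (adjusted p = 1.77e-12). At DR1 it was Ggt1, a surface enzyme that breaks down glutathione, which fell by 1.11 ± 0.09 (adjusted p = 4.68e-08).

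A few more relatives of the members were picked after their values were seen. Gpx7, a glutathione peroxidase of the endoplasmic reticulum, rose at all 4 sites, by 0.78 at PS, 0.48 at DR1, 0.75 at DR4 and 0.70 at DR6. Txnrd3, a thioredoxin reductase, rose by 0.68, 0.81, 0.97 and 0.74 in the same order. In the other direction Prdx3, the mitochondrial peroxiredoxin, fell by 0.82 at DR4, 0.46 at DR1 and 0.28 at DR6 and differed by -0.03 at PS. Gss, glutathione synthetase, fell by 0.76 at DR1, 0.64 at DR4, 0.53 at DR6 and 0.27 at PS. Adjusted p for the changes described here as rises and falls was at most 0.0255.

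Of 17 other selenoprotein genes, 15 were measured. By adjusted p, 4 were higher and 3 lower at PS, 7 and 1 at DR1, 3 and 9 at DR4, and 3 and 3 at DR6. The shares over all genes were 16.4% and 16.4% at PS, 24.5% and 23.2% at DR1, 23.9% and 31.0% at DR4, and 20.5% and 23.4% at DR6. The median of the selenoprotein list was -0.37 at DR4, where Gpx3 was highest, and 0.22 at DR1. The 1 member of this list with a 2-fold call was Selk, a selenoprotein of the endoplasmic reticulum, which rose by 1.12 ± 0.13 at DR6 (limma, adjusted p = 8.96e-06). None of the 15 came near the change of Gpx3 at PS or DR4.

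Of 14 oxidases, 12 were measured. By adjusted p, 1 was higher and 3 lower at PS, 3 and 5 at DR1, 1 and 9 at DR4, and 1 and 6 at DR6. The shares over all genes were 16.4% and 16.4% at PS, 24.5% and 23.2% at DR1, 23.9% and 31.0% at DR4, and 20.5% and 23.4% at DR6. Hao3, a peroxisomal hydroxyacid oxidase, fell at all 4 sites, by 2.19 ± 0.12 at PS, 1.74 ± 0.12 at DR1, 1.73 ± 0.12 at DR4 and 1.36 ± 0.12 at DR6 (limma, adjusted p at most 2.14e-07). Acox3, a branched-chain acyl-CoA oxidase, was called higher at DR4 (1.16 ± 0.42, adjusted p = 0.0273) and DR1 (1.10 ± 0.42, adjusted p = 0.0415), with DR1 overlapping SOL.

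**Figure D3:**
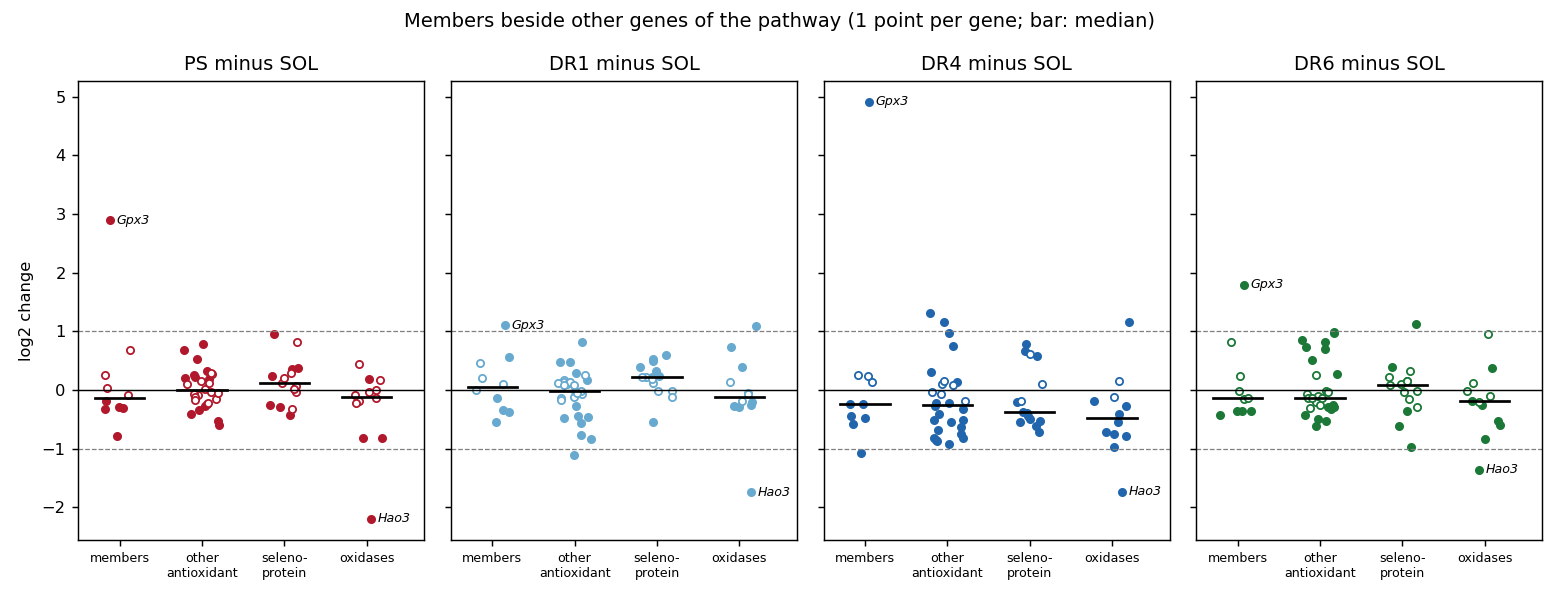
Log2 change at each polluted site minus SOL for the 10 members, 28 other antioxidant genes, 15 selenoproteins and 12 oxidases; each point is a gene, filled where the adjusted p was under 0.05, the bar is the list's median and dashed lines mark 2-fold. Gpx3 stands alone above the other points at PS and DR4, Hao3 is lowest at PS, DR1 and DR4, and most other points lie within 2-fold.

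Transcripts of other cell types also differed between the pools, and their part in the changes of the 10 genes was not tested. Of 17 markers of the kidney tubule, the main source of plasma Gpx3, 10 were measured, which took 3 or more arrays of any 1 site well above background. Of the 10, 8 were so on every PS array, against 5 at each other site. Markers high at PS could enter through PS itself, so the counts there are no test of a kidney signal. At PS 4 were called 2-fold higher and 1, Miox, 2-fold lower (-1.33). Where the marker was not above background at SOL only a bound can be given: Kap (at least 10.5-fold), Cdh16 (at least 2.40-fold), and Slc34a1 (at least 1.39-fold). Umod was higher by 2.24 on the log2 scale. At DR4 0 were 2-fold higher and 1, Aqp2, was 2-fold lower (-1.04), and 5 of the 10 were well above background on every array. The 4 markers named for PS were picked for being high there. Of the 4 DR4 arrays Kap was well above background on 1 and Umod, Slc34a1 and Cdh16 on 0. At DR6, 2 were 2-fold higher and 0 lower, and at DR1 0 in either direction. The summed relative signal of the 10 was 6.59 to 11.1 at PS, 7.92 to 8.83 at DR1, 5.91 to 16.9 at DR4 and 10.2 to 15.8 at DR6, against 6.96 to 8.75 at SOL.

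Exocrine pancreas markers had the largest median change of the marker lists at PS, DR1 and DR4, but not at DR6. All 10 measured of 12 were 2-fold lower at PS and at DR4, 3 of 10 at DR1 and 0 at DR6, with medians of -2.15, -3.25, -0.87 and 0.23. The summed relative signal of the 8 measured on every array was 168 to 171 at PS, 409 to 424 at DR1, 83.7 to 87.9 at DR4 and 923 to 940 at DR6, against 709 to 771 at SOL. At DR6, by adjusted p, 4 of the 10 were higher and 1 lower. Of 10 adipocyte markers, from a tissue that also makes Gpx3, 7 were measured, of which 0 were 2-fold higher at DR4 and at PS, 1 at DR1 and 1 at DR6. Of these 7 markers, 2 were 2-fold lower at DR4, 1 at PS, 1 at DR1 and 0 at DR6. The 5 of them measured on every array summed to 2.25 to 2.40 at PS, 3.20 to 3.56 at DR1, 1.79 to 2.12 at DR4 and 3.25 to 3.55 at DR6, against 1.89 to 2.36 at SOL.

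Erythroid markers, whose cells are rich in catalase, summed to 757 to 860 at PS, 379 to 417 at DR1, 306 to 308 at DR4 and 359 to 375 at DR6, against 754 to 780 at SOL; 5 of 5 measured were 2-fold lower at DR4, 4 at DR6, 1 at DR1 and 0 at PS. Macrophage markers summed to 153 to 158 at PS, 153 to 164 at DR1, 88.5 to 98.9 at DR4 and 83.4 to 87.8 at DR6, against 174 to 201 at SOL, with 3 of 10 measured 2-fold lower at DR4 and 1 at each other site. DR4 and DR6, where Prdx1 and Prdx6 were lowest, had the lowest sums of both erythroid and macrophage markers. Prdx5 was instead lowest at DR4 and DR1. At DR1 both sums were also below those of SOL, the erythroid one at 379 to 417. Yet Prdx1 had its highest mean of the 5 sites at DR1 (6.72), and the main Prdx6 probe stood at the SOL level there. A link between these markers and the peroxiredoxins was not tested. The 10 smooth muscle and stellate markers summed to 26.4 to 47.6 over the polluted sites, against 29.1 to 38.2 at SOL, the 5 adrenal and testis accessory markers to 3.50 to 5.01, against 3.31 to 4.21, and the 5 lung epithelium markers to 0.868 to 1.80, against 1.12 to 1.59. Of the smooth muscle and stellate markers 3 were 2-fold higher at DR1 and 2 at DR6. Of the adrenal and testis accessory markers 2 were 2-fold higher at PS, 2 at DR1 and 1 at DR4, and 1 was lower at DR4 and 1 at DR6. Of the lung markers 2 were higher at PS, 2 at DR1, 1 at DR4 and 2 at DR6, and 1 was lower at PS and 1 at DR1.

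**Figure D4:**
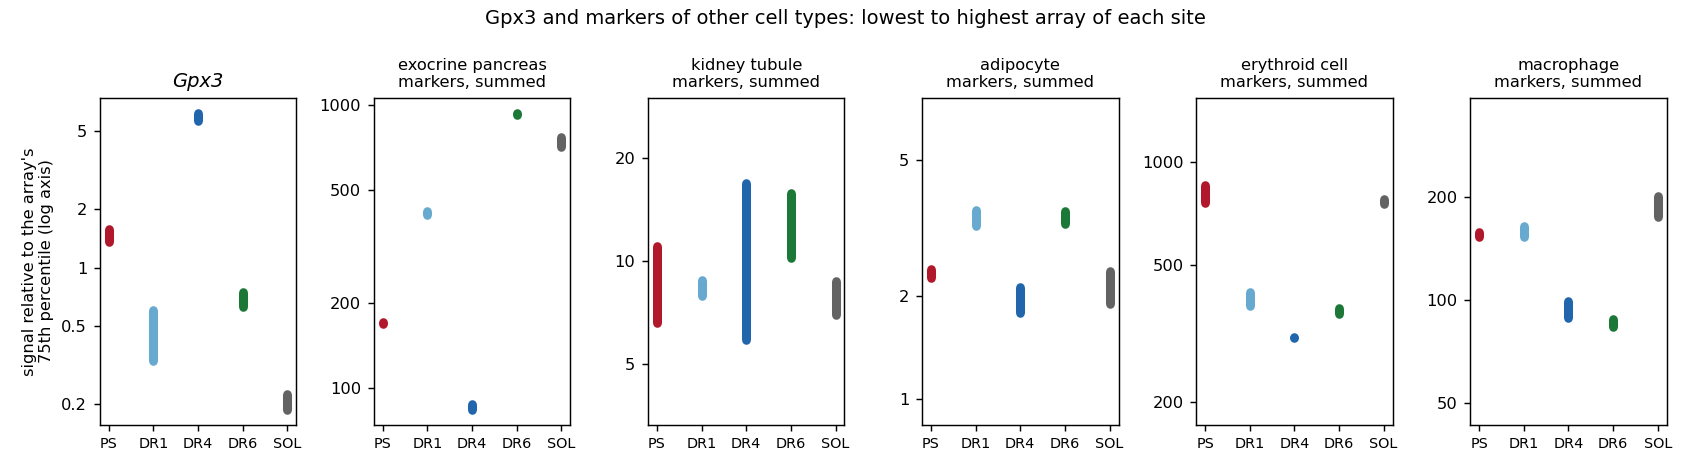
Signal relative to the array's 75th percentile (log axes) of Gpx3 and of 5 summed lists of markers of other cell types; each bar runs from the lowest to the highest array of a site. Gpx3 is highest at DR4, where pancreas markers are lowest and kidney markers, 5.91 to 16.9, span the SOL range of 6.96 to 8.75.

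The genes most like Gpx3 over the 4 comparisons, by the Euclidean distance between log2 changes among 14140 genes and transcripts with a name of their own, were Fmn2 (distance 1.72), Kcnab1 (1.87), Blm (2.36) and Rarres1 (2.47), followed by Sult1e1. Fmn2, which encodes a formin that nucleates actin, changed by 1.58 at PS, 1.70 at DR1, 4.02 at DR4 and 2.09 at DR6. Kcnab1, a potassium channel subunit, changed by 1.82, 2.18, 4.88 and 2.88 in the same order. Like Gpx3 both were highest at DR4, which is no separate result because they were chosen by their distance to Gpx3. The order of the other sites differed: PS had the smallest rise of the 4 for both genes. For Gpx3 the rise at PS (2.89) was second only to DR4. Sult1e1, the estrogen sulfotransferase, was not well above background at SOL, so its distance is not measured, and it was at least 4.98-fold higher at DR4, 1.94-fold at PS and 1.84-fold at DR1. Nearest to Sod3 were BC088983 (distance 0.169), Psat1 (0.211) and Slc22a21 (0.224). Psat1, an enzyme of serine synthesis, changed by -0.75 at PS, -0.41 at DR1, -1.12 at DR4 and 0.03 at DR6.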

How the data were processed

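Pooled liver RNA from 5 sites was measured on 19 one-colour arrays. The values used are the background-corrected linear intensity of every spot in the deposited scanner files. The submitters' processing notes name Agilent Feature Extraction 9.5.3.1 as the authors' software. The mean intensity and local background of each spot, and the software's flags for spots well above background, saturated or outlying, come from the same deposited files. A deposited series table of intensity per array, with column medians from 9.72 to 24.8, differed from them by at most 0.497% and served as an alternative. The DR1 slide used an older design file that names 5.84% of gene spots otherwise, so names and mm8 positions were taken from the other files by probe, and probe sequences from the DR1 files.

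Here 1639 control spots were left out and 43379 gene spots kept. From the log2 of the deposited intensity, the same array's 75th percentile was subtracted. Outlier spots were set missing, spots of 1 probe averaged, and probes kept (23458 of them) if 3 or more arrays of a site had them well above background. The brightest of these stood for its gene. 16003 genes were measured on all arrays. limma 3.58.1 in R 4.3.3 fitted a mean per site to all 19 arrays, with Benjamini-Hochberg adjustment over all genes in each comparison. The fit was tested on simulated data. Gpx3 minus each other member was compared with two-sided exact permutation tests over arrays. The plan for these gave the smallest p with 3 against 4 arrays as 2 regroupings of 35; it is 1, or 0.0286. Polluted pools against SOL were also fitted with limma on 5 site means, the lone SOL pool being assumed to vary like the others.

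All 10 members are named. Of the lists, genes with a 2-fold call may be named, as are the 5 genes nearest to Gpx3 and 3 nearest to Sod3, and others where the text says so. The members and lists were chosen with earlier results of these data known. Replicate numbers matched slide positions on all 19 arrays. The number of arrays and the signal over background limit the precision.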

Additional observations from a re-analysis of the deposited data

Results flagged for a closer look

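In 6 of 40 groups of 4 arrays, 1 array stood apart from the other 3 by Dixon's test, where chance marks about 1 in 20. Gpx4 was at 1.924 on SOL replicate 1, against 4.62 to 4.83 on the other SOL arrays. Gpx1 was at 8.348 on PS replicate 4 (others 8.247 to 8.256), and Sod3 at -3.547 on PS replicate 2 (others -3.216 to -3.171). Sod2 was at 5.716 on SOL replicate 3 (others 5.849 to 5.873). DR1 replicate 2 was apart for Prdx5 at 4.158 (others 3.802 to 3.851) and for Prdx6 at 5.852 (others 5.643 to 5.655).

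The change of Gpx3 against SOL differed between polluted sites by 2-fold or more in 5 pairs: PS minus DR1 1.79, PS minus DR4 -2.02, PS minus DR6 1.10, DR1 minus DR4 -3.81 and DR4 minus DR6 3.11 (limma, adjusted p at most 1.28e-05). For Cat the changes had opposite signs at PS and DR1 (difference -0.84, adjusted p = 1e-08) and at DR1 and DR6 (difference 0.92, adjusted p = 1.06e-08).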

How the results depend on the processing

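With all arrays kept, 313 of 320 member changes kept their sign and side of the call, and 296 of 310 when 1 array was left out. Many of the 320 could move little or not at all. Keeping dim probes, or requiring every array to be well above background, left each member's log2 change as it was. The mean of all probes did so for members with 1 probe, and the deposited series table differed by at most 0.497%. The 313 therefore overstate how much was put to the test. By adjusted p alone 6 members passed at PS, 6 at DR1, 7 at DR4 and 5 at DR6. Median scaling gave Prdx5 0.0009 at PS and Prdx6 0.0045 at DR1, and quantile scaling gave Sod1 0.0744 at DR1. Normexp with quantile scaling gave Gpx3 0.35 at DR1 and 0.72 at DR6, Sod3 -0.27 at DR4 and Prdx1 -0.0129 at PS, called 0, 1 and 0 members at DR1, DR4 and DR6, and separated Gpx3 from 3 members at DR1; the cause of these was not tested.

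Leaving out 1 array, Gpx3 at DR1 ran from 0.93 to 1.22, its lowest without DR1 replicate 2, and Sod3 at DR4 from -1.18 to -0.97. Gpx4 ran from -0.0102 to 0.96 at PS, -0.23 to 0.78 at DR1, -0.46 to 0.51 at DR4 and 0.12 to 1.09 at DR6, each lowest without SOL replicate 1. Prdx6 at DR1 ran from -0.0541 to 0.0154, Prdx5 at DR6 from -0.0554 to 0.0569 and Prdx1 at PS from -0.0002 to 0.0478. The count of members called ran from 0 to 1 at DR1 and 1 to 2 at DR4. With pools as units Gpx3 was at 2.67 (adjusted p = 0.998).

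Genes called at PS, DR1, DR4 and DR6 were 722, 994, 1722 and 1136, against 197, 246, 599 and 275 under normexp and 390, 551, 1177 and 661 when all arrays had to be well above background. Keeping dim probes shifted the median of all genes by up to -0.13. With a replicate block Gpx3 was at 1.81 at DR6, and no call of a member changed. Arrays with the same number at different sites correlated at 0.09 on average (-0.16 to 0.48, 36 pairs). Arrays with other numbers at different sites correlated at -0.03 (-0.41 to 0.46, 108 pairs). These are not the correlations of levels given earlier, which were 0.952 to 0.984 between sites. The ranges of same and other numbers overlapped, and whether the numbers pair the arrays was not settled.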
